A study of Mus musculus with 81 samples.

Results

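The 36 genes described here are expressed by hepatic stellate cells and other fibroblast-like cells of the liver or encode the matrix that these cells lay down. They were taken by symbol from a list of such genes, by a rule that uses no measured value. The list itself was chosen with earlier results of these data known. All 36 were found among the 21765 genes that the arrays measured. They comprise 5 fibrillar collagens, 6 network and other collagens, 8 matrix glycoproteins and proteoglycans, 7 enzymes and inhibitors of crosslinking and turnover, 7 stellate or contractile cell genes, and 3 genes of growth factor signalling. Each gene is represented by its probe set with the highest mean, and only Col5a1, Fbn1 and Loxl2 had more than 1.

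Hepatic stellate cells lie between hepatocytes and the sinusoid, where they store vitamin A in the resting liver. When activated, as in chronic injury, they take on contractile proteins and secrete collagen, and transforming growth factor beta and platelet-derived growth factor are their classic stimuli. The balance between lysyl oxidases, which crosslink collagen, and metalloproteinases with their tissue inhibitors then sets how much matrix stays.

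Livers came from fasted 29-week-old male mice of the BXD family, inbred lines whose genomes are fixed mosaics of C57BL/6J and DBA/2J, and from both parental strains. Mice ate a chow (Harlan 2018), or a high-fat diet (Harlan 06414) from 8 weeks of age. Each of the 81 arrays (41 chow, 40 high fat) carried RNA pooled evenly from about 5 perfused livers of 1 strain and diet, so the spread between animals is not measured. Both diets were available for 39 strains, namely 37 BXD strains and both parents; BXD50 had high fat only, and BXD60 and BXD92a had chow only.

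Values are scores, with a mean of 8 and an SD of 2 over the probe sets of every array, and differences are in these score units. The scale behaves like a logarithm of unstated base, so no fold changes are given. Array medians ran from 7.66 to 7.81. Mean levels of the negative controls centred on 6.69. The mean of Lox exceeded 45.8% of these controls and that of Timp1 50.8%, so their ordinary levels are close to background, while every other member exceeded at least 65.3%. The hepatocyte marker Alb averaged 15.44 on chow. Pancreatic acinar transcripts stood out on the DBA/2J chow and BXD63 high-fat arrays. In whole liver, fewer cells of a type and less RNA per cell cannot be told apart.

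The chow array of BXD61 stood apart in these genes, which was known from earlier results and is given as a description, without a test. It was the highest of the 41 chow arrays in 29 of 36 members, against 10.5% of all genes, and exceeded the next array by at least 0.5 units in 19 members, against 3.45% of all genes. None of the other 80 arrays was the highest of its diet in more than 5 members, and 57 of them were highest in 0. Counts of members called by diet and by strain, and of correlations called, are therefore given with both BXD61 arrays and without them. Other results include BXD61 unless stated.

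**Figure D1:**
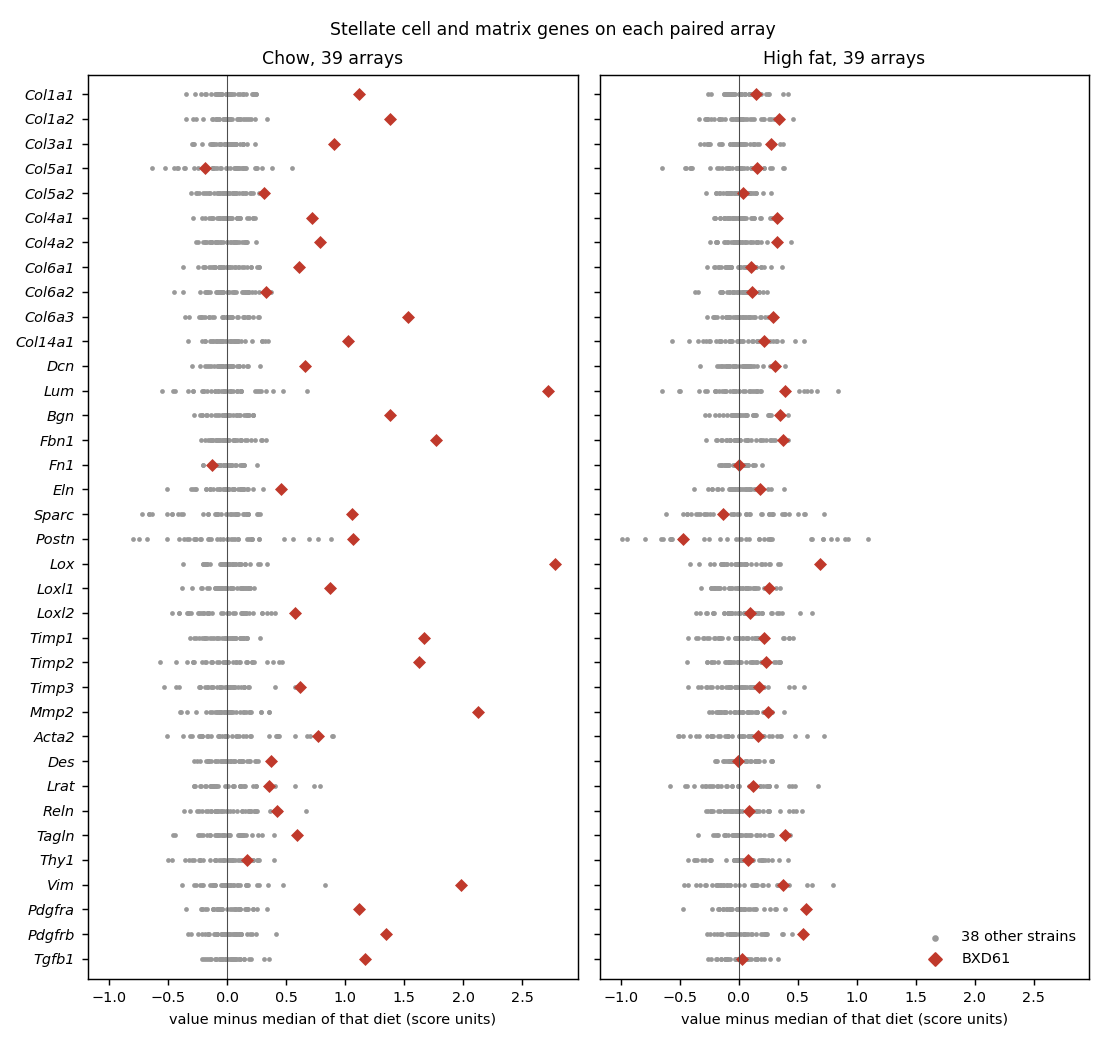
Value of each of the 36 members on the 39 chow arrays (left) and 39 high-fat arrays (right) of the strains with both diets, as the distance in score units from the member's median on that diet. Grey points are 38 strains and the red diamond is BXD61, which lies to the right of nearly all other chow arrays for most members and within or near their range on high fat.

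All 7 crosslinking and turnover genes were highest on that array, by at least 0.5 units in 5. Lox, the lysyl oxidase that crosslinks collagen and elastin, was 9.19 in BXD61 on chow, while the other 40 chow arrays lay between 6.04 and 6.75. Mmp2, the gelatinase that degrades basement membrane collagen, was 11.03 against a next highest 9.26. The metalloproteinase inhibitors Timp1 and Timp2 were 8.30 and 10.30 against 6.91 and 9.14. Loxl1, a relative of Lox needed for elastic fibres, was 8.74 against 8.10. Loxl2 and Timp3 led the next array by 0.167 and 0.044.

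Matrix glycoproteins and proteoglycans followed. Lum, which encodes the collagen-binding proteoglycan lumican, was 10.56 against 8.52 in the next chow array. The microfibril gene Fbn1 reached 9.45 against 8.02. Bgn, the proteoglycan biglycan, was 13.05 against 11.89, and Sparc, a collagen-binding glycoprotein of remodelling tissue, 12.51 against 11.73. Gaps for Dcn (decorin), Eln (elastin) and Postn (periostin, a matricellular protein of fibrosis) were below 0.5 units.

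Among the collagens, Col6a3 was 9.71 against 8.45, Col1a2 10.35 against 9.31 and Col1a1 9.87 against 9.00. Col14a1, Col3a1 and Col4a2 exceeded the next array by 0.678, 0.673 and 0.537. The fibrillar type V chains did not take part in the same way: Col5a2 led by 0.045, and Col5a1 at 8.64 ranked 32nd of 41.

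Of the stellate and contractile genes, the intermediate filament gene Vim was 12.59 against 11.44. Acta2, whose smooth muscle actin is the usual marker of activated stellate cells, was 9.54, below BXD63 (9.66) and BXD97 (9.66). Lrat, which esterifies retinol for storage, and Reln, a secreted glycoprotein of stellate cells, ranked 6th and 3rd. Fn1, whose fibronectin hepatocytes also secrete into plasma, ranked 39th of 41 at 14.03. The platelet-derived growth factor receptors Pdgfrb and Pdgfra reached 10.22 and 9.63 against 9.28 and 8.85, and Tgfb1, the fibrogenic cytokine, 9.89 against 9.07.

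On high fat BXD61 was the highest array in 5 members, against 3.54% of all genes. These were Col4a1, Col6a3, Lox, Pdgfra and Pdgfrb, by at most 0.337 units (Lox, 7.27 against 6.93). In this strain 31 of 36 members were lower on high fat than on chow, with a median difference of -0.516. Over all genes 54.54% were higher on high fat in BXD61, with a median difference of 0.033. Between 16 and 32 members were higher on high fat in each of the other strains, where 45.85% to 57.77% of all genes were.

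Other lists were also displaced on the BXD61 chow array. Counts of genes highest there are read against 10.5% of all genes, and the share of all genes lowest there was not counted. Of 23 TGF-beta and PDGF signalling genes 16 were highest there, among them Itgb8 (8.80 against 7.30) and Thbs1 (9.30 against 8.28), which activate latent TGF-beta, and the TGF-beta target Ctgf (11.04 against 10.15). The matrix protease list had 5 of 17 highest and 1 lowest, with Timp4 at 9.24 against 7.18. Among 24 other matrix proteins 14 were highest and 1 lowest, with Mgp, the calcification inhibitor matrix Gla protein, at 9.82 against 8.06. Collagen processing genes had 6 of 17 highest and 1 lowest. Of 12 further stellate markers 5 were highest and 2 lowest, and of 8 portal fibroblast markers 6 were highest, including Cd34 (9.10 against 8.17) and Dpt (9.68 against 8.91). Of 8 smooth muscle markers 1 was highest, which is near the 10.5% of all genes, and of 6 mesothelial markers 2 were.

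Macrophage markers moved on the same array. Of 12, 8 were highest, against 10.5% of all genes, such as Emr1 (12.68 against 10.20) and Cd68 (10.58 against 9.60). Another 3 were lowest, including the Kupffer cell genes Clec4f (8.77) and Cd163 (6.68). The widest gap of all genes was in the Fc receptor-like gene Fcrls, at 11.07 against 6.26, followed by Ms4a7 and Cd72, and Lox ranked 29th. The summed level of the macrophage list was 126.04 on this array, against 109.81 to 122.30 on the other chow arrays. Sums of the cholangiocyte (83.23 against at most 78.76) and lymphocyte lists (91.20 against at most 87.85) were also highest there. Of 10 cholangiocyte markers 5 were highest and 0 lowest, of 12 lymphocyte markers 3 and 0, and of 10 sinusoidal endothelial markers 3 and 4. Of 10 hepatocyte markers 0 were highest and 1 lowest, with a median distance of -0.12 from the median of the other chow arrays. Their summed level was 148.54, within the chow range of 147.92 to 150.69. Cyp2c37 (10.20) and Cyp4a12a (10.99), which are not on that list, were among the genes farthest below all other chow arrays. Over all genes the array's distance from the median of the other chow arrays had an SD of 0.456, against 0.266 at most on any other chow array. The part that other cell types or the handling of this pool had in the result was not tested.

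Across strains, the question of diet was answered by the paired difference, high fat minus chow, in 39 strains. Of 36 members, 21 were higher and 4 lower on high fat and 11 did not pass (limma with strain as a block, Benjamini-Hochberg over 21765 genes, adjusted p under 0.05). Of all genes 53.7% passed, 27.7% higher and 26.1% lower, so the share of members higher on high fat was above that of all genes and the share lower was below it. The median difference was 0.118 over the members and 0.0041 over all genes. Without BXD61, 24 members were higher and 4 lower, against 28.4% and 26.8% of all genes (55.2% in either direction), with a median of 0.148. Differences were small: the 95th percentile of absolute differences among negative-control probe sets was 0.296, which only Col5a2 and Postn exceeded.

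**Figure D2:**
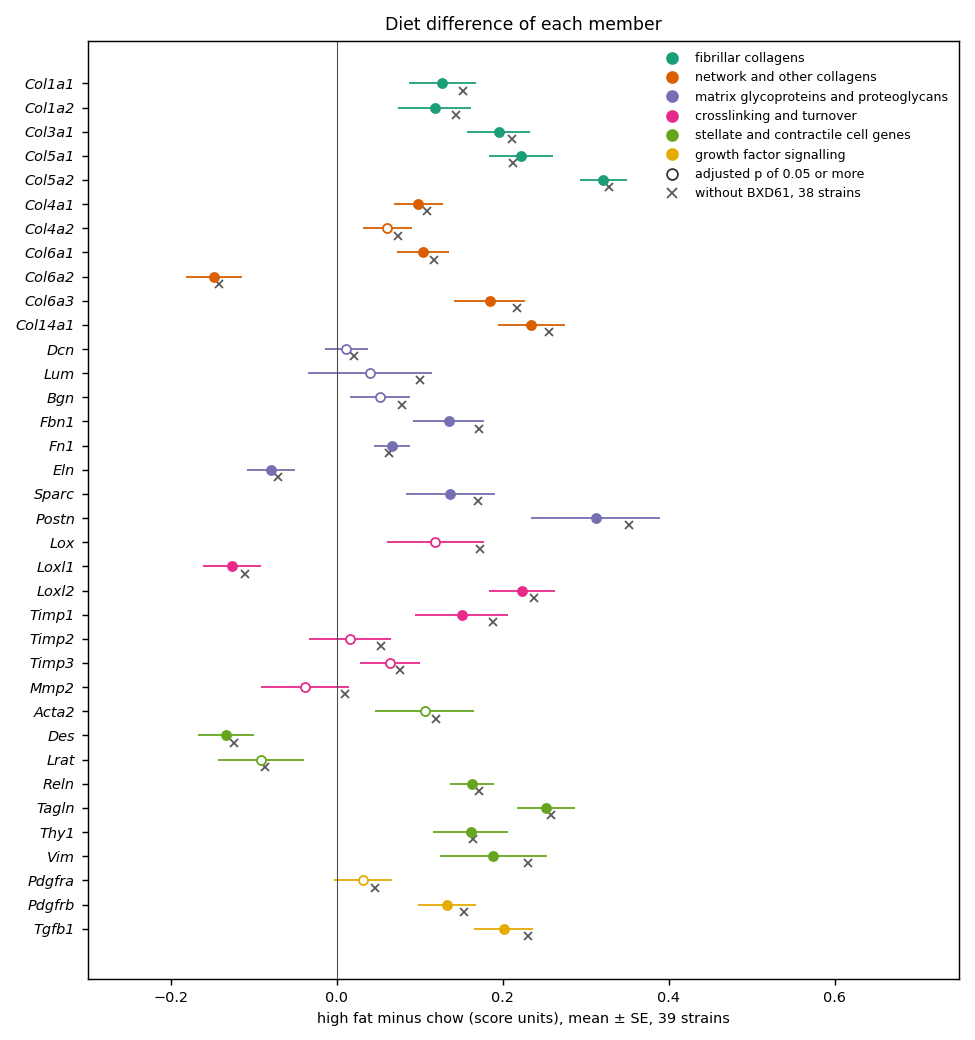
High fat minus chow in score units for each member, as the mean over 39 strains with its limma SE. Colours give the role group, open circles the 11 members that did not pass, and crosses the mean over 38 strains without BXD61. Most points lie to the right of 0, with Col5a2 and Postn farthest and Col6a2, Eln, Loxl1 and Des passing to the left.

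All 5 fibrillar collagens rose. Col5a2, a chain of the type V collagen that controls the width of collagen fibrils, ran from 6.86 to 7.48 with a median of 7.16 on the 41 chow arrays, and from 7.20 to 7.75 with a median of 7.48 on the 40 high-fat arrays. Its highest chow array therefore lay at the high-fat median. It was higher in 38 of 39 strains, by 0.321 ± 0.028 (SE; limma, adjusted p = 6.68e-13).

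Col1a1, the main chain of type I collagen, ran from 8.40 to 9.87 (median 8.75) on chow and from 8.62 to 9.30 (median 8.88) on high fat. The diets overlapped nearly throughout, and the 9.87 was BXD61. The difference was 0.127 ± 0.041 (adjusted p = 0.0075, limma; 29 of 39 strains), and 0.153 ± 0.034 without BXD61. Col1a2, its partner chain, ran from 8.62 to 10.35 (median 8.97) and from 8.79 to 9.58 (median 9.12). It differed by 0.118 ± 0.044 (26 of 39 strains, adjusted p = 0.0210), a call lost when all 81 arrays were fitted with no strain block (0.0602).

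Col3a1, the chain of type III collagen that accompanies type I in scars, ran from 8.44 to 9.65 (median 8.74) on chow and from 8.58 to 9.32 (median 8.94) on high fat. Its high-fat median was close to the highest chow arrays other than BXD61 (8.97), and it rose by 0.195 ± 0.038 in 31 of 39 strains (limma, adjusted p = 2.73e-05). Col5a1 rose by 0.222 ± 0.039. All 5 fibrillar collagens were higher in 16 strains and 4 of 5 in another 13.

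RefSeq promoter windows were matched for 22 members (GRCm38.p6; 250 bases before and 50 after the annotated start). Shown are the last 200 bases before the start of Col1a2 and Col3a1, which correlated over strains without BXD61 (r = 0.614, rho = 0.512, permutation test, adjusted p = 0.0035 over 630 pairs of members), and of Acta2, which had r of -0.215 and -0.147 with them and did not pass (adjusted p = 0.440 and 0.635). Capitals mark CCAAT and GGGCGG on either strand, which do not overlap each other here.
Col1a2, chr6:4505418-4505617, plus strand: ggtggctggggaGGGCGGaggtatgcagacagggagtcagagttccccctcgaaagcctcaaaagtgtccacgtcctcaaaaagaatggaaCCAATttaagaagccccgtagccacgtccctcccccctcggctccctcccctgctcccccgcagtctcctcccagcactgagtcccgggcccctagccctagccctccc
Col3a1, chr1:45311338-45311537, plus strand: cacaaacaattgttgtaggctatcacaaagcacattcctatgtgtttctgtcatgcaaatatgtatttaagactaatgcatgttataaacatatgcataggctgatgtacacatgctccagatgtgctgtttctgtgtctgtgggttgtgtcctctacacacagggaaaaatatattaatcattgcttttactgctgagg
Acta2, chr19:34255374-34255573, minus strand: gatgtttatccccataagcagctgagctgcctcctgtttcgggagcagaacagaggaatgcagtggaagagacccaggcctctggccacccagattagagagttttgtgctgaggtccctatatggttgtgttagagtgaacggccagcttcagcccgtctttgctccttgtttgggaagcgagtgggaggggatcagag
In the 250 bases before the start, CCAAT or its complement stood in 7 of 22 members (31.8%) and in 33.8% of all 32851 windows. GGGCGG, the GC box, stood in 13 of 22 (59.1%) and in 32.7% of all windows. Neither motif occurs in the Col3a1 and Acta2 stretches printed. The letters describe these windows and name no factor.

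Of the network and other collagens 4 rose, 1 fell and Col4a2 did not pass (adjusted p = 0.0755, and 0.0214 without BXD61). Col14a1, a collagen that coats fibrils, ran from 9.67 to 11.03 (median 10.02) on chow and from 9.69 to 10.81 (median 10.25) on high fat. The diets overlapped over most of that range, but 34 of 39 strains were higher, by 0.235 ± 0.041 (limma, adjusted p = 4.68e-06). The 3 chains of type VI collagen, which assemble into 1 microfibril, went different ways: Col6a1 and Col6a3 rose by 0.104 ± 0.031 and 0.184 ± 0.043, whereas Col6a2 fell by 0.148 ± 0.034 and was higher in 9 of 39 strains (adjusted p = 0.000287).

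Among matrix glycoproteins and proteoglycans 4 rose, 1 fell and 3 did not pass. Postn spread widely, from 7.94 to 9.80 (median 8.75) on chow and from 8.08 to 10.17 (median 9.06) on high fat. The upper end belonged to different strains on the 2 diets, BXD61 on chow and BXD96 on high fat. It rose by 0.312 ± 0.078 in 30 of 39 strains (limma, adjusted p = 0.000788). Fbn1, Sparc and Fn1 rose by 0.135 ± 0.043, 0.137 ± 0.053 and 0.066 ± 0.022, and Eln fell by 0.079 ± 0.029. The calls for Sparc and Eln were lost without the strain block (adjusted p = 0.126 and 0.0783 on the 78 paired arrays). Dcn, Lum and Bgn differed by 0.012, 0.040 and 0.052 and did not pass, although without BXD61 Bgn did (0.079 ± 0.027, limma, adjusted p = 0.0116). Without that strain Lum differed by 0.101 ± 0.050 and Dcn by 0.021 ± 0.025, which did not pass (adjusted p = 0.0853 and 0.480).

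Of the crosslinking and turnover genes 2 rose, 1 fell and 4 did not pass. Loxl2, a lysyl oxidase acting on type IV collagen, ran from 7.18 to 8.22 (median 7.65) on chow and from 7.46 to 8.44 (median 7.82) on high fat. It rose by 0.223 ± 0.040 in 30 of 39 strains (limma, adjusted p = 7.4e-06). Its relative Loxl1 fell by 0.126 ± 0.035. Timp1, the inhibitor most tied to liver fibrosis, ran from 6.32 to 8.30 (median 6.65) and from 6.37 to 7.26 (median 6.79), and the diets overlapped nearly throughout. It rose by 0.151 ± 0.056 (26 of 39 strains, adjusted p = 0.0212), and by 0.188 ± 0.045 without BXD61.

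For Lox the call depended on BXD61. Its values ran from 6.04 to 9.19 (median 6.42) on chow and from 6.17 to 7.27 (median 6.58) on high fat, and it was higher in 31 of 39 strains. The difference was 0.118 ± 0.058 with BXD61 (limma, adjusted p = 0.0832) and 0.172 ± 0.032 without it (1.48e-05). Mmp2 differed by -0.039 ± 0.053 with BXD61 and by 0.0095 ± 0.030 without it, and neither passed (adjusted p = 0.556 and 0.805). Timp2 and Timp3 differed by 0.016 and 0.064 and did not pass, and without BXD61 Timp2 differed by 0.053 ± 0.037 (adjusted p = 0.221).

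The stellate and contractile genes divided, with 4 higher, 1 lower and 2 not passing. Tagln, an actin-binding protein of contractile cells, ran from 6.93 to 7.99 (median 7.39) on chow and from 7.27 to 8.05 (median 7.61) on high fat. It rose by 0.252 ± 0.035 in 34 of 39 strains (limma, adjusted p = 6.92e-08). Acta2 ran from 8.26 to 9.66 (median 8.81) and from 8.47 to 9.71 (median 8.98). The diets covered almost the same range, and its difference of 0.106 ± 0.060 did not pass (24 of 39 strains, adjusted p = 0.130, 95% interval -0.014 to 0.226). Des, the intermediate filament desmin of quiescent and activated stellate cells, fell by 0.134 ± 0.034.

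Reln, Thy1 (a surface protein of portal fibroblasts and T cells) and Vim rose by 0.163 ± 0.026, 0.161 ± 0.046 and 0.189 ± 0.065, and Vim lost its call when all 81 arrays were fitted with no strain block (adjusted p = 0.0688). Lrat ran from 9.50 to 10.56 (median 9.78) on chow and from 9.13 to 10.39 (median 9.71) on high fat. The diets overlapped, and its difference of -0.091 ± 0.051 did not pass (14 of 39 strains higher, adjusted p = 0.130). Tgfb1 ran from 8.51 to 9.89 (median 8.73) and from 8.70 to 9.29 (median 8.96). Its lowest high-fat array was close to the chow median, and it rose by 0.201 ± 0.035 in 37 of 39 strains (limma, adjusted p = 6.83e-06). Pdgfrb rose by 0.132 ± 0.035, and Pdgfra differed by 0.032 and did not pass.

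Other genes of the same processes were read against the 27.7% of all genes higher and 26.1% lower on high fat. Of 17 collagen processing genes 4 rose and 6 fell: the collagen chaperone Serpinh1 rose by 0.151 ± 0.038, whereas the procollagen enhancer Pcolce2, the lysyl oxidase Loxl3 and the prolyl hydroxylase P4ha2 differed by -0.227, -0.184 and -0.131. Of 23 TGF-beta and PDGF signalling genes 6 rose, among them Pdgfa (0.148) and Ltbp4 (0.137), and 5 fell, among them Smad7 (-0.257), the inhibitor of TGF-beta receptors, and Tgfbr3 (-0.098). Of 17 matrix proteases 6 rose and 5 fell. Plau, the urokinase plasminogen activator, was higher in 39 of 39 strains, by 0.558 ± 0.036 (limma, adjusted p = 7.26e-17), and the macrophage elastase Mmp12 rose by 0.555 ± 0.099, while Plat and Mmp3 differed by -0.349 and -0.278. Of 24 other matrix proteins 2 rose and 6 fell, including Nid2 (-0.25), Lamc1 (-0.204), Tnc (-0.212) and Col15a1 (-0.162).

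Markers of other cells were read beside these counts and against the same shares of all genes (27.7% higher, 26.1% lower). Of 12 macrophage markers 10 rose and 0 fell, with a median difference of 0.226, and their summed level ran from 109.81 to 126.04 on chow and from 111.96 to 125.88 on high fat. Of 12 further stellate markers 3 rose and 2 fell, of 8 portal fibroblast markers 0 rose and 1 fell, and of 8 smooth muscle markers 2 rose and 1 fell. Of 10 sinusoidal endothelial markers 1 rose and 2 fell, and of 12 lymphocyte markers 4 rose and 6 fell. The part these cells had in the members' differences was not tested.

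Strains differed in 18 of 36 members, against 22.3% of all genes (limma moderated F-test, adjusted p under 0.05), and in 15 without BXD61, against 23.3%. With BXD61 included, the median intraclass correlation of a strain's paired values, after removal of the diet means, was 0.314 over the members and 0.196 over all genes. Glycoproteins and proteoglycans accounted for 7 of the calls (of 8) and crosslinking and turnover genes for 5 (of 7). Only 1 of 5 fibrillar collagens passed, Col5a1 (intraclass correlation 0.512, adjusted p = 0.00142). Col4a2, Dcn, Lox and Pdgfra lost the call without BXD61 and Tgfb1 gained it. The call for Mmp2 (adjusted p = 0.0472) was lost in 17 of the 39 fits that left out 1 strain (0.0501 to 0.0642) and under 4 other alternatives (0.0532 to 0.0779).

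Reln was the member most fixed by strain, with an intraclass correlation of 0.753 (limma F-test, adjusted p = 2.87e-07). It ran from 10.32 (BXD96) to 11.35 (BXD63) on chow, median 10.68, and from 10.58 (BXD79) to 11.39 (BXD64) on high fat, median 10.85. Strains high on one diet were high on the other: BXD63 had 11.35 and 11.31, BXD66 11.13 and 11.34, and BXD48 10.37 and 10.62. Over 39 strains its chow and high-fat values correlated at r = 0.754 and rho = 0.702 (permutation test, two-sided, p = 1e-05 for both, the smallest that 100000 resamples can give; adjusted over 36 members 0.00036). Without the 2 strains farthest from the chow median, BXD63 and BXD66, r was 0.688.

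The parents differed in Reln only among the 36 members. C57BL/6J had 10.55 on chow and 10.78 on high fat, and DBA/2J had 11.08 and 11.11, a difference of -0.432 units (limma, adjusted p = 0.0308, 2 arrays per parent). The contrast was called for 2.39% of all genes, with C57BL/6J above DBA/2J in 1.35% and below it in 1.04%. The call was lost when any of the 4 parental arrays was left out (adjusted p from 0.0808 to 0.331), and the DBA/2J chow array is among those with acinar transcripts.

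Chow and high-fat values correlated over strains in 17 of 36 members (permutation test of r, two-sided, adjusted over the 36), where 19.6% of all genes had an r at least as high as the lowest called. Without BXD61 this was 16 members, against 21.7% of all genes, and the median r fell from 0.342 to 0.256. After Reln, the highest values without BXD61 were Sparc (r = 0.605, rho = 0.510, adjusted p = 0.00132) and Postn (0.593, 0.593, 0.00132). They were 0.631 and 0.552 without the 2 strains farthest from the chow median. Col1a1, Col3a1, Timp1 and Des had r of -0.044, -0.143, -0.104 and -0.125 without BXD61 and did not pass (adjusted p from 0.540 to 0.840). Lox fell from 0.580 to 0.220 and Pdgfra from 0.475 to 0.182 when BXD61 was left out, so their relations rest on that strain. Col4a2 also lost its call (0.434 to 0.303, adjusted p = 0.0169 and 0.135), while Lum (0.35 to 0.398, 0.0646 and 0.0335) and Tgfb1 (0.304 to 0.487, 0.102 and 0.0152) gained one. The permutations treat strains as exchangeable, which closely related BXD strains are not.

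**Figure D3:**
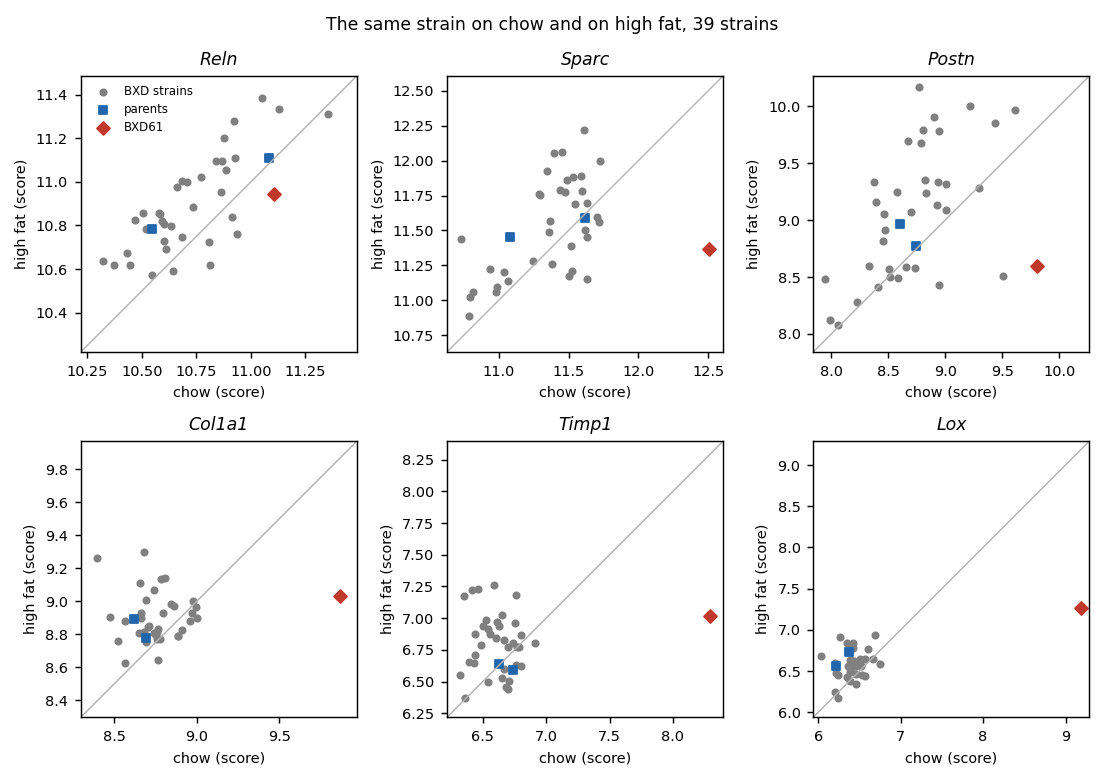
High-fat score against chow score for 6 members, 1 point per strain (39 strains), with BXD strains in grey, the parents as blue squares and BXD61 as a red diamond; the line marks equal values. Points of Reln, Sparc and Postn rise along the line with scatter, most of them above it. BXD61 lies well below the line for Sparc and Postn. Col1a1, Timp1 and Lox form a cloud with BXD61 far to the right.

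Type I collagen was compared with every other member over the strain means of both diets. With all 39 strains Col1a1 correlated with 25 of 35 members (permutation test of r, two-sided, adjusted over the 35 pairs), where 12.8% of all genes had an r at least as high as the lowest called. Without BXD61 this fell to 10 of 35, against 13.7%, and without BXD61 and BXD79, the strains farthest from the Col1a1 median, to 8. The relations of Col1a1 to Lox (r = 0.619), Pdgfra (0.490), Fbn1 (0.525) and Bgn (0.472) went to -0.111, -0.083, -0.118 and -0.144, so they rest on BXD61.

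Of the 10 relations left without BXD61, 8 were to other collagens. Col1a2 had r = 0.707 and rho = 0.711 (permutation p = 1e-05, adjusted 0.00035), Col3a1 0.573 and 0.602, Col5a2 0.552 and 0.567, Col6a2 0.552 and 0.564, and Col4a1 0.527 and 0.561 (adjusted 0.00306 to 0.00518). Col4a2, Col5a1, Col6a3, Eln and Thy1 lay between 0.403 and 0.508. Without BXD61 and BXD79, Col1a2 and Col3a1 had 0.732 and 0.547. Of the 7 stellate and contractile genes Thy1 passed (0.445, adjusted p = 0.0221), and Acta2 (-0.193), Des (-0.067), Lrat (0.011), Reln (-0.099), Tagln (-0.027) and Vim (0.096) did not (adjusted p from 0.504 to 0.954). Centring each array on its median was applied only over all 39 strains, BXD61 included. Col1a1 then had r of 0.232 with Thy1 and 0.072 with Col5a1 (permutation test, adjusted p = 0.212 and 0.72). Without centring these were 0.417 and 0.293 (0.0177 and 0.0966). The other collagens named here and Eln passed after centring (adjusted p of at most 0.0211).

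All 630 pairs of members were then compared in the same way, a family added after the data had been seen. With all strains 273 pairs were positively and 13 negatively correlated, where 7.38% and 4.81% of all gene pairs were at least as far from 0 as the weakest called. Without BXD61 these were 51 and 15, where 3.84% of all gene pairs were at or above the lowest called positive r (0.445) and 2.19% at or below the weakest called negative r (-0.452). By rho 35 positive and 9 negative pairs passed. The median r over pairs fell from 0.324 to 0.075.

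Among the highest pairs without BXD61, Col5a1 and Eln had r = 0.793 (rho 0.780), Col5a1 and Col5a2 0.691 (0.593), Eln and Thy1 0.675 (0.629), Col6a2 and Thy1 0.668 (0.579), and Fn1 and Thy1 0.640 (0.582). These same genes ran against others: Thy1 against Timp3 at -0.627 (-0.575) and Tgfb1 at -0.544 (-0.568), and Eln against Postn at -0.569 (-0.595) and Tgfb1 at -0.574 (-0.509). Adjusted p over the 630 pairs lay between 0.00126 and 0.0129 for r, and without the 2 strains farthest from the median of 1 gene of the pair the values were between 0.567 and 0.744 and between -0.431 and -0.576.

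The pericyte receptor Pdgfrb was paired with Col14a1 (r = 0.720, rho = 0.684), Bgn (0.584, 0.573) and Vim (0.552, 0.498), with adjusted p of 0.00126, 0.00485 and 0.011 and values of 0.657, 0.461 and 0.478 without the 2 farthest strains. Postn and Lrat had 0.565 (0.531, adjusted p = 0.00852). Lox, Timp1, Timp2, Mmp2, Des and Tagln had 0 partners past the threshold by r without BXD61.

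**Figure D4:**
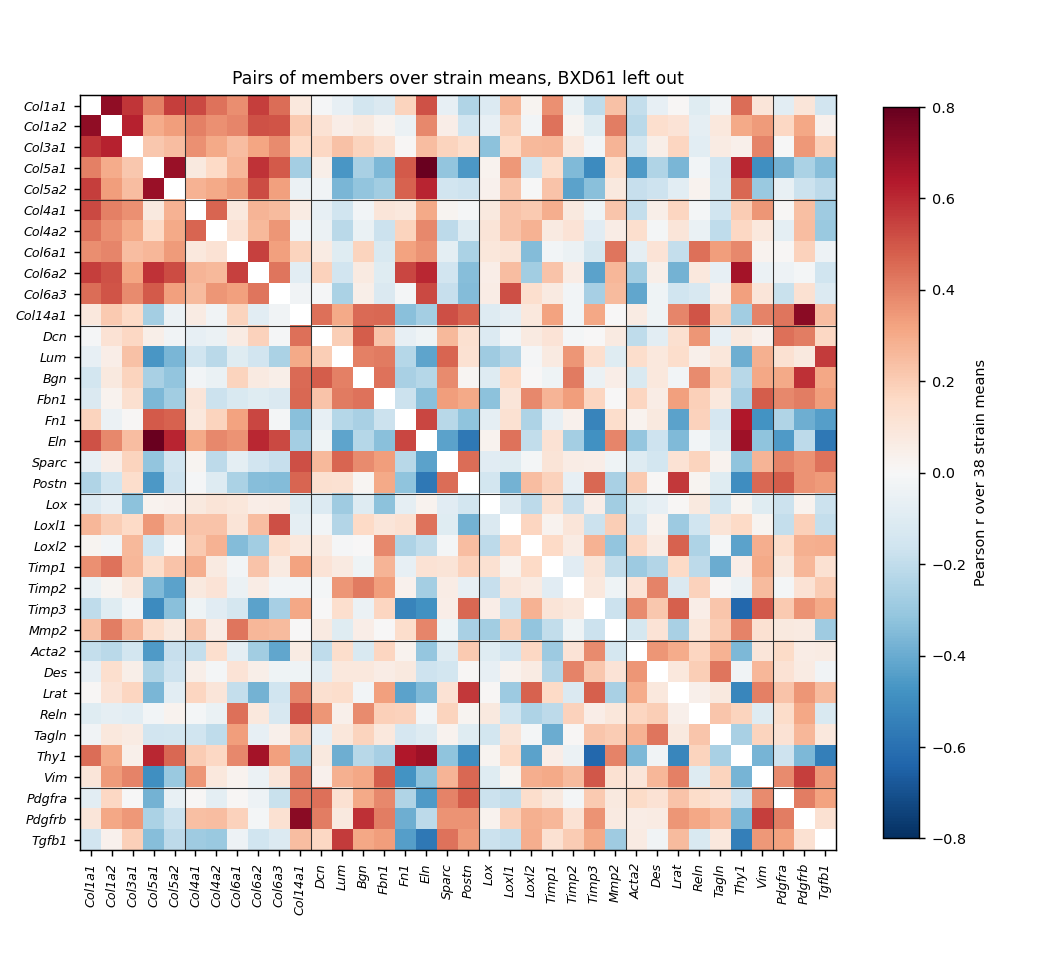
Pearson r of every pair of members over the means of both diets in 38 strains, with BXD61 left out; red is positive, blue negative, and lines divide the role groups. The collagens other than Col14a1 are mostly red with each other and with Eln and Thy1, which are blue against Postn, Timp3 and Tgfb1, while Lox is pale throughout.

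Neighbours on a chromosome were read from the RefSeq gene order, in which 4 pairs of members are adjacent protein-coding genes. Col4a1 (minus strand) and Col4a2 (plus strand) are transcribed in opposite directions on chromosome 8 (GRCm38.p6). Their annotated starts, 11312826 and 11312805, are 21 bases apart and placed so that the first transcribed bases overlap. Without BXD61 they correlated at 0.463 (rho 0.387, adjusted p = 0.0392 over 630 pairs), and at 0.253 without the 2 strains farthest from the Col4a1 median. Col6a1 and Col6a2, which moved in opposite directions with diet, correlated over strains at 0.545 (rho 0.524, adjusted p = 0.0099). Col3a1 with Col5a2 (0.248) and Dcn with Lum (0.194) did not pass (adjusted p = 0.339 and 0.507).

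Outside the members, the genes whose strain means were most like the mean of Col1a1, Col1a2 and Col3a1 are given as a description. Over 39 strains these were Rab3il1 (r = 0.846), Lama2 (0.839), Adam15 (0.831), Gpr31c, Cx3cr1, Adamts2, Basp1, Slamf9, Fcrls and Tnip3 (0.798 or above). Without BXD61 they were Iqgap3 (0.698), Rab3il1 (0.661), Hspb7, Gpr45, Dagla, Mrgpra2, 5730410E15Rik, H2-Eb2, Mxd3 and Mtap6 (0.635 or above), so only Rab3il1 was in both lists.

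Strains did not spread differently between diets in any member past the threshold. Limma on the paired absolute deviations from each diet's median called 0 of 36 members, against 0.00919% of all genes, and 1 member, Postn, at an unadjusted p under 0.05 (0.318 on chow and 0.476 on high fat, p = 0.00319), where 5.27% of all genes reached that level.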

How the data were processed

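Liver RNA pools of 42 strains were hybridised to 81 Affymetrix arrays. Affymetrix Expression Console was the software, per the submitters' processing notes; the sources used here do not give its version, how probes were summarised or how arrays were rescaled. As deposited, each value is a score, and every array of the authors' table has a mean of 8 and an SD of 2 over 35556 probe sets. Tests were run on these scores unchanged. The number of arrays limits the precision.

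Of the probe sets, 25096 carried 1 symbol, 2 several and 10458 none. The probe set of highest mean per symbol was kept, giving 21765 genes. The limma package 3.58.1 (R 4.3.3; lmFit and eBayes) tested diet, strain and parents on the 78 paired arrays with strain and diet as terms, and Benjamini-Hochberg adjustment over all genes at 0.05. Strain names pair the pools; the correlation between the deviations of a strain's pools exceeded 0.1 in 37 of 39 strains (median 0.338). P-values measure the spread between pools, technical spread included. Correlations over strains used 100000 permutations.

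The members, gene lists and the BXD61 alternative were chosen with earlier results of these data known. Values are named for the member with the smallest diet p in each role group, for Col1a1, Col1a2, Col3a1, Acta2, Timp1 and Lrat, for members in which a strain stood apart, for up to 4 genes per pathway list, and for the 10 genes most like the fibrillar collagens. Of the list entries, P3h1, Lamb1, Adgre1, Cela2a and Amy2b were not matched. The limma tests were run on simulated data (21765 genes, 50 changed per size). The diet test found 22% of the changes of 0.1 units, 98% of those of 0.25 and 100% of those of 0.5, and 5.36% of its calls were false. The others found 46% of strain effects whose SD matched the residual SD, 96% of parental differences of 1 unit, and 88% of genes whose spread on high fat was 3 times the residual SD. The simulated noise was independent and normal, and far fewer genes changed with diet than the 53.7% called in the data. The unadjusted p needed for a diet call was therefore smaller in the simulation, so its diet shares do not carry over directly. Alternatives left out BXD61, acinar-positive arrays, related strains, parents or each strain, or changed the block, centring, weights, probe set rule, filter or variance model.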

Additional observations from a re-analysis of the deposited data

How the results depend on the processing

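The count of members called by diet was 25, and lay between 25 and 28 when each strain was left out in turn, with 21 to 24 higher and 4 lower in every case; the strain count of 18 lay between 15 and 20. With no replicate block the diet count was 23 on the 78 paired arrays and 21 on all 81. These fits lost 6 diet calls of single members (Col1a2 and Vim on 81 arrays, Eln and Sparc on both). Under the other alternatives, leaving aside each strain in turn, 350 diet tests of single members kept the direction and call, 7 gained it, 1 changed sign and 0 lost the call. Part of this agreement was fixed beforehand, for diet and strain tests alike. The kept probe set of each member was also that of highest variance, so that rule left the members' values unchanged. The mean of probe sets could change only Col5a1, Fbn1 and Loxl2. Of the strain tests 337 were unchanged in call, 9 gained it and 12 lost it; beside Mmp2 and the BXD61 losses these were Lum with a robust variance trend (adjusted p = 0.0607), Fbn1 with the mean of probe sets (0.0943), Timp2 without the acinar-positive arrays (0.0524) and Pdgfra with array weights (0.0519). Signs turned for Mmp2 without BXD61 (0.00947, from -0.0386) and Timp2 without BXD71 (-0.000579, from 0.0164), which were called in none of these diet fits. With each strain left out in turn, Mmp2 lay between -0.0471 and 0.00947 and Timp2 between -0.000579 and 0.053. The parental count of 1 became 0 without the acinar-positive arrays, 0 with median centring, and 0 without any of the 4 parental arrays (lowest and highest 0). The count of Col1a1 relations, 25, was 10 without BXD61 and 8 without BXD61 and BXD79, and of all pairs, an alternative chosen after seeing the data, 286 called relations became 66 without BXD61. The cause of these changes was not tested. Lox and Timp1 lay near the median of the negative controls, and Col5a2, Tagln and Loxl2 below their 75th percentile (7.75), which limits what the differences of these 5 members can show.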
